A study of Mus musculus with 2 samples.

Results

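Genes of prostaglandin synthesis, breakdown and reception were followed in the pre-implantation uterus. They were chosen by symbol, with earlier results of these data known, and all 10 were found among the 14678 genes of the deposited table. The members were Pla2g4a, Ptgs1, Ptgs2, Ptges, Ptgis, Hpgd, Ptger2, Ptger3, Ptger4 and Ptgfr. Both groups were double transgenic VEGFtetO/tetO/beta-AKtg/wt mice. In these mice tet operator sequences sit in the VEGF promoter, and a tetR-Krab repressor is made in all tissues from a β-actin promoter. Dox+ females stayed on doxycycline chow and kept VEGF expression, and Dox- littermates were taken off doxycycline as juveniles, so that VEGF was repressed. Young adult females of both groups were mated with VEGFtetO/tetO males, and uteri were collected on gestation day 2.5. RNA of 3 uteri was pooled for each condition, and 1 library was sequenced from each pool by digital gene expression (DGE) profiling, which counts short tags per gene. These libraries therefore give no replicate check of any difference below. Intervals cover counting error only, and doxycycline intake and VEGF level cannot be told apart. The copy numbers and TPM values of the table imply 5985925 clean tags for Dox+ and 5844314 for Dox-. TPM here means copies per 1000000 clean tags, without a correction for length.

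Prostaglandins are made when cytosolic phospholipase A2 (Pla2g4a) frees arachidonic acid from membranes and a cyclooxygenase (Ptgs1 or Ptgs2) turns it into prostaglandin H2. Terminal synthases then give prostaglandin E2 (Ptges) or prostacyclin (Ptgis), and Hpgd starts the inactivation of the E and F series. Prostaglandin E2 acts through Ptger1 to Ptger4, which encode the EP receptors, and prostaglandin F2α through Ptgfr, a receptor tied to uterine contraction. In the rodent uterus these lipids are known for their part in vascular permeability at the attachment site and in decidualization, and loss of Pla2g4a or Ptgs2 in mice disturbs implantation.

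In the Dox- library 9 of the 10 genes were lower than in the Dox+ library and Ptges alone was higher. Of all 14678 genes, 7128 were lower by any amount and 7550 higher. Together the members had 2142 copies in Dox+ and 1033 in Dox-, 358 and 177 TPM, a fold difference of 2.02 (95% interval 1.88 to 2.18). Of the sums by role, that of the 4 member receptors differed most, with 432 and 111 copies, 3.80-fold lower in Dox- (3.08 to 4.72). The cyclooxygenases had 435 and 234 copies (1.81-fold lower, 1.54 to 2.14). The terminal synthases had 607 and 309 copies (1.92-fold lower, 1.67 to 2.21), a sum in which the genes went opposite ways. Ptgis alone could not be told apart from Ptger4 within counting error (ratio between them 1.16, 0.821 to 1.65). The same held for Ptgis with Ptger2 and with Ptgfr, while Ptger3 differed more than Ptgis at 95% (1.79, 1.18 to 2.79). Fewer cells of a type and less RNA per cell cannot be told apart in these whole uteri. Vegfa, the repressed gene, had 247 copies in Dox+ and 125 in Dox-, 1.93-fold lower (1.55 to 2.41). For this gene the paper also reported, with replicates, lower uterine mRNA by quantitative PCR and lower protein by Western blot.

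**Figure D1:**
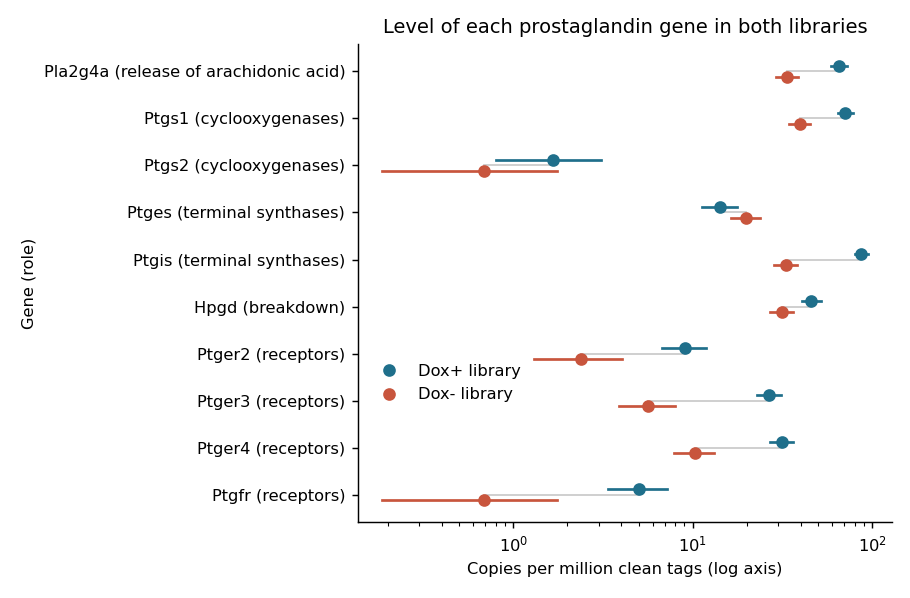
Level of each gene in copies per 1000000 clean tags (log axis) in the Dox+ library (blue) and the Dox- library (red), with exact 95% Poisson intervals as bars. The Dox- point lies left of the Dox+ point for 9 genes and right of it for Ptges, and the bars of Ptgs2 and Ptges overlap between libraries.

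Differences of at least 1.5-fold were counted among genes whose copies in both libraries summed to 200 or more, a sum that 6 of the members reached. Of these, 4 were past the fold and lower in Dox- and 0 were past it and higher. Among all 6547 genes with enough copies, 14.7% were lower and 15.2% were higher at this fold. The median log2 ratio, Dox- over Dox+, was -0.91 for these 6 members and 0.03 for all 6547 genes. The 4 genes were Pla2g4a, Ptgs1, Ptgis and Ptger4. Hpgd lay just under the fold and Ptges, with 201 copies in all, just reached the copy number. Ptger3 stayed just below it with 193. When 20 summed copies were enough, 9 members were counted, of which 7 were lower and 0 higher, with a median of -1.40. At that filter 18.7% of 12079 genes were lower and 19.7% higher, with a median of 0.03. Ptger2, Ptger3 and Ptgfr enter this count mainly through their Dox+ copies.

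**Figure D2:**
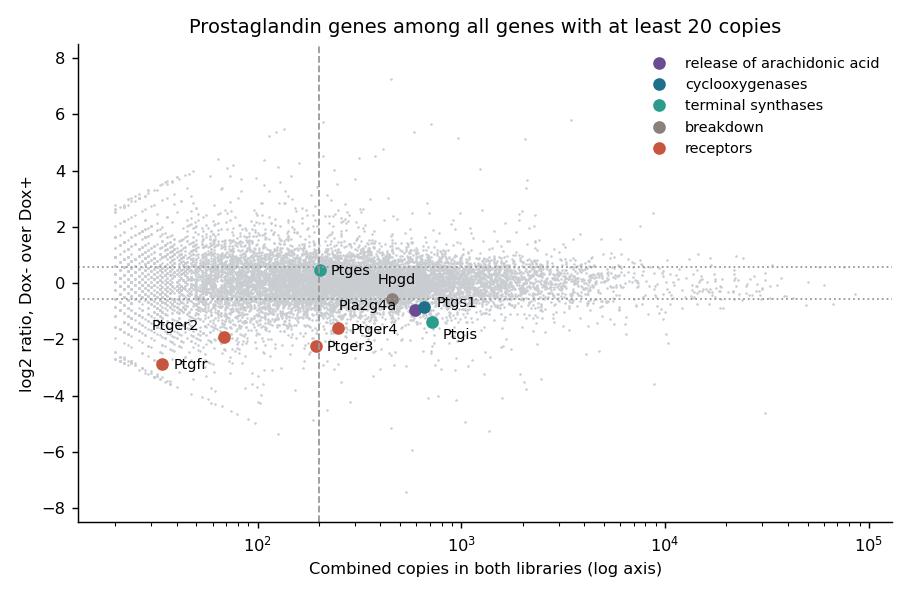
log2 ratio, Dox- over Dox+, against the combined copies in both libraries (log axis) for all genes with at least 20 copies (grey) and the 9 members with at least 20 (coloured by role). Dotted lines mark a 1.5-fold difference and the dashed line 200 combined copies. 7 members lie below the lower dotted line, Hpgd just inside it and Ptges just inside the upper line.

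Pla2g4a (chromosome 1, 151676748 to 151808420, minus strand of NCBIM37, the assembly also called mm9) encodes the phospholipase that supplies arachidonic acid. It had 393 copies in Dox+ (65.7 TPM) and 196 in Dox- (33.5 TPM), 1.96-fold lower (1.65 to 2.34). Ptgs1 (chromosome 2, 36085946 to 36107792, plus strand), the constitutive cyclooxygenase, had 425 copies in Dox+ and 230 in Dox-, 1.80-fold lower (1.53 to 2.13). The differences of Pla2g4a and Ptgs1 could not be told apart within counting error, since the ratio between them was 1.09 (0.852 to 1.38). Ptgs2 (chromosome 1, 151947254 to 151955140, plus strand), the inducible cyclooxygenase, had only 10 copies in Dox+ and 4 in Dox-. Its interval, from 0.704-fold to 10.7-fold lower, includes no difference, so a change of Ptgs2 was not detectable at this depth.

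Pla2g4a and Ptgs2 are neighbours on chromosome 1 and point away from each other. A gap of 139 kb separates them, with no protein-coding gene of the annotation in it and 1 lincRNA gene. Their levels stood far apart in both libraries. Per kilobase of the longest annotated transcript, Pla2g4a had 23.0 copies per 1000000 clean tags in Dox+ and 11.7 in Dox-, where Ptgs2 had 0.403 and 0.165.

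The terminal synthases went opposite ways. Ptgis (chromosome 2, 167017305 to 167066104, minus strand), prostacyclin synthase, had 522 copies in Dox+ (87.2 TPM) and 193 in Dox- (33.0 TPM), 2.64-fold lower (2.23 to 3.13). Ptges (chromosome 2, 30744991 to 30785383, minus strand), the inducible microsomal prostaglandin E synthase, had 85 copies in Dox+ (14.2 TPM) and 116 in Dox- (19.8 TPM), 1.40-fold higher (1.05 to 1.87). The ratio of Ptges to Ptgis was thus 3.69 times as high in Dox- as in Dox+ (2.63 to 5.18), a comparison that no library size enters.

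Hpgd (chromosome 8, 58773349 to 58799843, plus strand) encodes the dehydrogenase that inactivates prostaglandins. It had 275 copies in Dox+ and 183 in Dox-, 1.47-fold lower (1.21 to 1.78). The difference was smaller than that of Ptger4, as the ratio of Hpgd to Ptger4 was 2.09 times as high in Dox- (1.46 to 3.00).

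All 4 receptors were lower in Dox-, and none of their intervals reached 1. Ptger4 (chromosome 15, 5156661 to 5194187, minus strand), which encodes EP4, a receptor that raises cAMP, had 188 copies in Dox+ and 60 in Dox-, 3.06-fold lower (2.28 to 4.16). Ptger3 (chromosome 3, 157229856 to 157307722, plus strand), which encodes EP3, a receptor that mainly lowers cAMP, had 160 and 33 copies, 4.73-fold lower (3.24 to 7.11). Receptors of opposite effect on cAMP were both lower. Ptger2 (chromosome 14, 45607870 to 45623495, plus strand) encodes EP2, which also raises cAMP, and had 54 and 14 copies, 3.77-fold lower (2.06 to 7.34). Ptgfr (chromosome 3, 151461882 to 151500594, minus strand) had 30 copies in Dox+ and 4 in Dox-, 7.32-fold lower, with a wide interval of 2.58 to 28.6 because of the 4 copies. The 6 ratios between receptor pairs all had intervals that include 1, so the counts do not order the receptors.

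**Figure D3:**
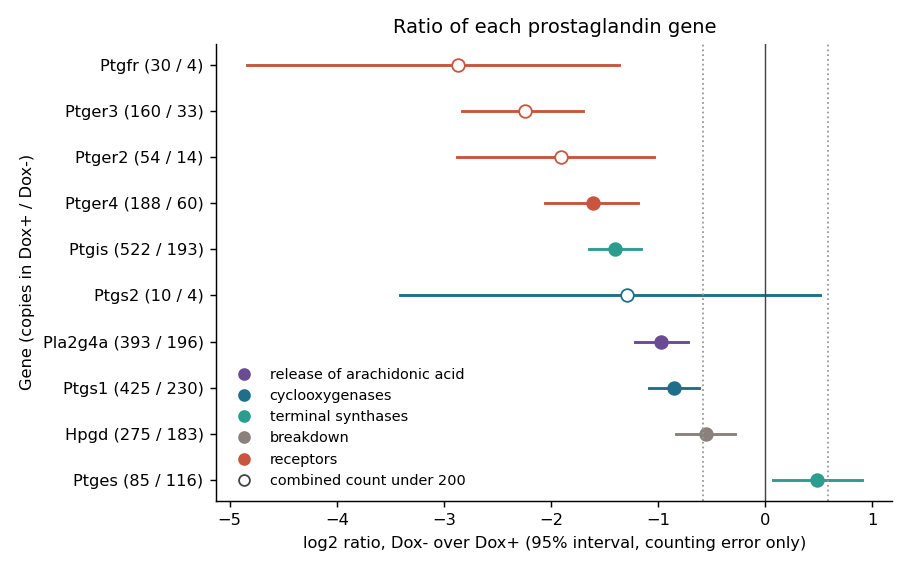
log2 ratio, Dox- over Dox+, of each gene with its exact 95% interval, coloured by role. Labels give the copies in Dox+ and Dox-, open circles mark genes with a combined copy number under 200, and dotted lines mark a 1.5-fold difference. The 4 receptors lie between -2.87 and -1.61, Ptgis at -1.40, Pla2g4a, Ptgs1 and Hpgd between -0.97 and -0.55, and Ptges at 0.48.

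To see which members moved apart whatever the library size, the ratio of the Dox- over Dox+ ratios was taken for all 45 pairs, with exact conditional intervals. Of these, 25 excluded 1 at 95%, and 14 did so after the intervals were widened for 45 pairs by the Bonferroni method. Ptges was in 8 of the 14, with every other member except Ptgs2. Hpgd held apart from Ptgfr, Ptger3, Ptger4 and Ptgis in 4 more. The last 2 pairs were Ptger3 with Pla2g4a and Ptger3 with Ptgs1, with ratios of 2.42 and 2.62 (widened intervals 1.23 to 5.09 and 1.34 to 5.49). When the members were put in the order of their ratios, 1 of the 9 neighbouring pairs, Hpgd and Ptges, differed beyond counting error at 95%.

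Levels were compared between genes per kilobase of the longest GENCODE transcript, in copies per 1000000 clean tags and kilobase. In Dox+ the order was Ptgis (41.4), Hpgd (26.7), Ptgs1 (24.8), Pla2g4a (23.0), Ptger4 (9.48), Ptger3 (7.47), Ptges (3.89), Ptger2 (2.45), Ptgfr (1.19) and Ptgs2 (0.403). By the exact conditional interval of their ratio, neighbours in this order differed beyond counting error except Hpgd and Ptgs1 (1.08, 0.924 to 1.26) and Ptgs1 and Pla2g4a (1.08, 0.937 to 1.24). In Dox- the order was Hpgd (18.2), Ptgis (15.7), Ptgs1 (13.7), Pla2g4a (11.7), Ptges (5.44), Ptger4 (3.10), Ptger3 (1.58), Ptger2 (0.650), Ptgs2 (0.165) and Ptgfr (0.163). There the intervals of the first 3 neighbouring pairs and of Ptgs2 and Ptgfr included 1. Without the length correction the upper ranks changed, to Ptgis (87.2 TPM), Ptgs1 (71.0), Pla2g4a (65.7) and Hpgd (45.9) in Dox+ and to Ptgs1 (39.4), Pla2g4a (33.5), Ptgis (33.0) and Hpgd (31.3) in Dox-, and Ptger4 and Ptger3 in Dox+ no longer differed beyond counting error (1.18, 0.947 to 1.46). Ptges changed its place on both scales. Its level per kilobase was 0.411 times that of Ptger4 in Dox+ (0.314 to 0.533) and 1.76 times in Dox- (1.27 to 2.44), and by TPM the ratios were 0.452 (0.346 to 0.587) and 1.93 (1.40 to 2.69). Among the genes with a tag and a known length, Ptger3 lay at percentile 61.9 of this level in Dox+ and 27.3 in Dox-, Ptger4 at 67.1 and 40.6, and Ptges at 46.7 and 53.7. If each transcript gives 1 tag, a correction for length is not needed, and across all genes the copy number had little relation to length (Spearman's rho -0.06 in Dox+ and -0.04 in Dox-).

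The 3 EP receptor genes among the members were each lower in Dox-, while Ptger1, not a member, had 6 copies in Dox+ and 16 in Dox-. The bases just before the start sites of these 3 members are shown to compare what the promoters hold, with that of Ptgs1. RefSeq gives promoter windows for 9 of the 10 members (table build GRCm38.p6), and each window was found once in NCBIM37, which gave the positions below. Each line is the 120 bases before the RefSeq start, 5′ to 3′ on the gene's strand, and lies in no annotated exon. Capitals mark a GC box (GGGCGG) or a CCAAT box (CCAAT) on either strand.
Ptger3 (chr3:157229720-157229839, plus strand): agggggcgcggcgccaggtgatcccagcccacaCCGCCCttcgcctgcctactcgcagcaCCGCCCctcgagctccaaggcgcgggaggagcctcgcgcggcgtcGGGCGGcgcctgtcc
Ptger4 (chr15:5194188-5194307, minus strand): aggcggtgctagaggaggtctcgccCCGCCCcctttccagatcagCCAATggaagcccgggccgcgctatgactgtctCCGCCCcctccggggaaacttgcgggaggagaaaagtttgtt
Ptger2 (chr14:45607666-45607785, plus strand): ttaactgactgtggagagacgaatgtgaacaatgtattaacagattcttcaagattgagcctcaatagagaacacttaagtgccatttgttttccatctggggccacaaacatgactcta
Ptgs1 (chr2:36085826-36085945, plus strand): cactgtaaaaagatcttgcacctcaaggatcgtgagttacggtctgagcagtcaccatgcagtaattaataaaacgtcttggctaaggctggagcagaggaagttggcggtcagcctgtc

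These stretches differ in make-up. Ptger3 is 77.5% G and C with 3 GC boxes and Ptger4 63.3% with 2 GC boxes and a CCAAT box, while Ptger2 is 39.2% and Ptgs1 48.3%, both with no match in these 120 bases. Over the 250 bases before the start, 6 of the 10 member windows (Pla2g4a has a pair) held a GC box, against 32.7% of all 32851 promoters. A TATA box (TATAAA) was in 1 window against 12.4% of promoters, a CCAAT box in 2 against 33.8%, and a nuclear receptor half-site (AGGTCA) in 2 against 14.0%. The half-sites were those of Pla2g4a and Ptgfr. The core of the cAMP response element (TGACG) was in 0 windows against 17.8%, and an E-box (CACGTG) in 0 against 6.02%. A match of letters is a description of the window and not a bound site.

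The pathway around the members was followed with a list of 49 other genes, of which 39 were in the table and 18 had 200 or more summed copies. Of the 18, 7 were at least 1.5-fold lower in Dox- and 2 at least 1.5-fold higher, beside 14.7% and 15.2% of all genes, and the median log2 ratio was -0.11. All 18 are described by role.

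Among genes that release arachidonic acid or its precursors, Pla2g16, a phospholipase of adipocytes and other cells, had 790 copies in Dox+ and 329 in Dox- (2.34-fold lower, 2.06 to 2.67). Mgll, monoacylglycerol lipase, had 257 and 117 copies (2.14-fold lower, 1.72 to 2.69). Plaa, phospholipase A2 activating protein, had 249 and 367 copies (1.51-fold higher, 1.28 to 1.78). Pla2g12a, a secreted phospholipase, had 245 and 184 copies, within the fold of 1.5.

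Other synthases and reductases went both ways. Tbxas1, thromboxane synthase, had 286 copies in Dox+ and 122 in Dox- (2.29-fold lower, 1.85 to 2.85), and Cbr3, a carbonyl reductase, had 325 and 170 (1.87-fold lower, 1.55 to 2.26). Akr1c14, a hydroxysteroid dehydrogenase of the aldo-keto reductase family, had 41 and 314 copies (7.84-fold higher, 5.65 to 11.1). The other prostaglandin E synthases differed little. Ptges2 had 309 and 312 copies, a fold of 1.03 (0.881 to 1.21), and Ptges3, which is also the Hsp90 cochaperone p23, had 2193 and 1875 (1.14-fold lower, 1.07 to 1.22). Cbr1 had 290 and 291 copies and Akr1b8 330 and 405, both within the fold of 1.5.

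In breakdown and transport, Ptgr1 and Zadh2, reductases of prostaglandin metabolites, had 241 and 154 copies and 285 and 182 copies, 1.53-fold lower in both cases (1.24 to 1.88 and 1.26 to 1.85). Abcc4, an exporter of prostaglandins, had 265 and 156 copies (1.66-fold lower, 1.36 to 2.03). Ptgr2, a related reductase, had 176 and 186 copies. Of these 4 genes 3 were past the fold of 1.5 and lower in Dox-, beside 14.7% of all genes. Ptgr1 and Zadh2 lay only just past it, so their place depends on the library size used. The member Hpgd lay just under it at 1.47-fold.

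The receptor partners with enough copies stayed within the fold of 1.5. Ptgfrn, a membrane protein that binds the receptor of prostaglandin F2α, had 551 and 591 copies (1.10-fold higher, 0.977 to 1.24), beside the 30 and 4 of Ptgfr. Ppard, a nuclear receptor proposed to respond to prostacyclin, had 130 and 124 copies, and Rxra, its dimer partner, 195 and 211. The other prostanoid receptors were at low counts. Of these, named after their values were seen, Ptgir, the prostacyclin receptor, had 15 tags in the Dox+ library and no tag in the other. Its fold against a floor of 3 copies in the Dox- library was 4.88, and the exact interval began at 3.50-fold lower. Ptger1, which encodes EP1, had 6 and 16 copies and was the EP receptor with more copies in Dox- (2.73-fold, 1.02 to 8.52). Tbxa2r had 46 and 39 copies and Gpr44 12 and 12.

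**Figure D4:**
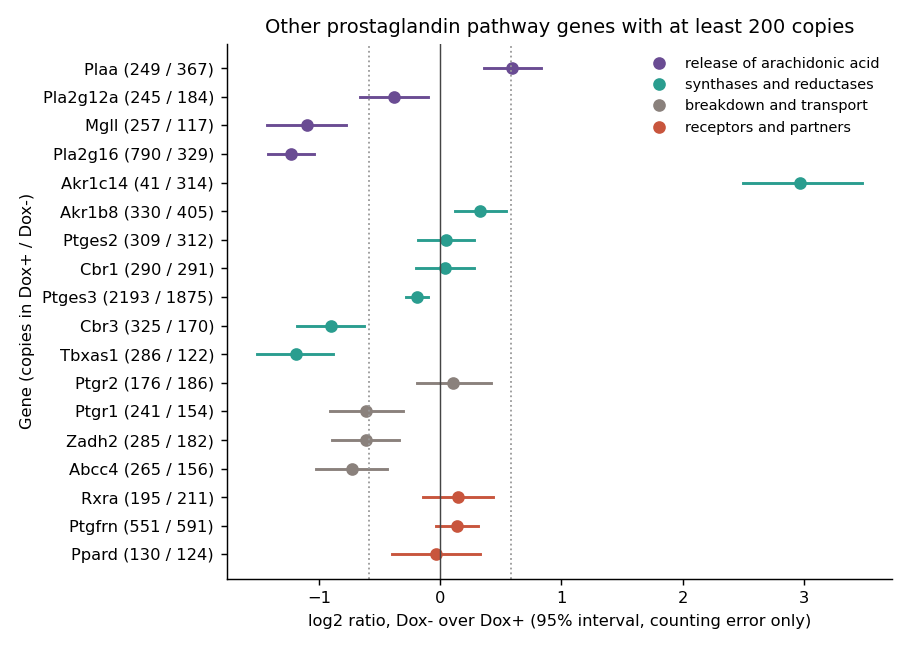
log2 ratio, Dox- over Dox+, with exact 95% intervals for the 18 other pathway genes with at least 200 combined copies, grouped by role, with copies in Dox+ and Dox- in the labels. 7 genes lie left of the lower dotted line (1.5-fold) and Plaa and Akr1c14 right of the upper one, and Ptges2, Cbr1, Ptgr2, Rxra, Ptgfrn and Ppard have intervals that include 0.

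Marker genes of the cell types of the uterus also differed between the libraries, and their part in the results above was not tested. All 7 smooth muscle markers were lower in Dox- (38898 and 26201 copies summed, 1.45-fold, 1.43 to 1.47), and 5 of 7 endothelial markers were lower (1121 and 728 copies, 1.5-fold, 1.37 to 1.65). Epithelial markers were higher for 7 of 8 genes (5117 and 6974 copies, 1.40-fold, 1.35 to 1.45), and leukocyte markers for 8 of 9 (518 and 815 copies, 1.61-fold, 1.44 to 1.80). Of the 8 stromal markers 5 were lower and 3 higher, with a median log2 ratio of -0.24. Their sum, 48402 and 57225 copies, was higher in Dox- because of Col1a1 (23017 and 33696 copies). Lum and Dcn were higher too, while Hand2, a transcription factor of the stroma, was the lowest of the list. It had 985 and 143 copies (6.73-fold lower, 5.64 to 8.07). Single markers differed within a list, with log2 ratios from -0.92 (Smtn) to -0.33 (Tagln) in smooth muscle and from -1.01 (Cdh5) to 0.80 (Kdr) in endothelium.

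**Figure D5:**
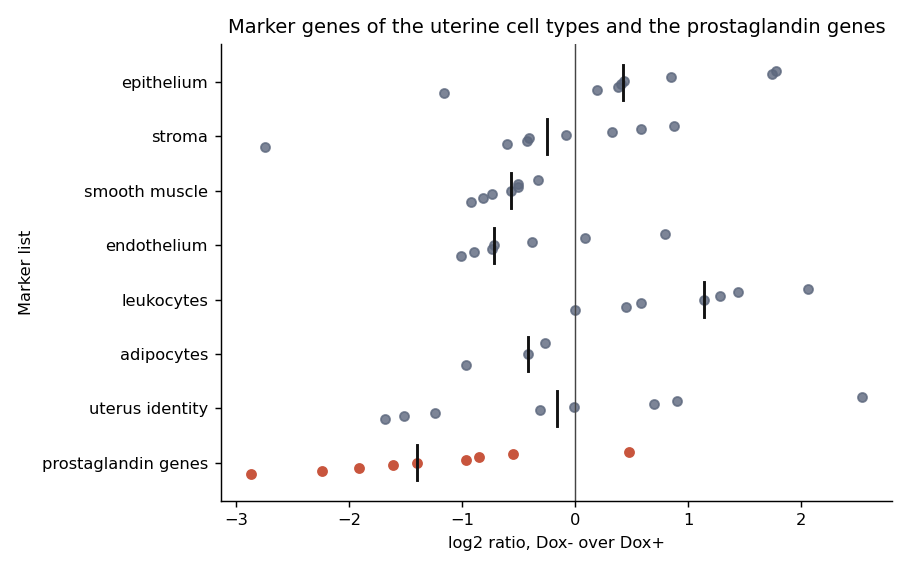
log2 ratio, Dox- over Dox+, of single marker genes with at least 20 combined copies in 7 lists (grey) and of the 9 prostaglandin genes (red), with the median of each list as a black line. Smooth muscle markers all lie below 0, most epithelial and leukocyte markers above 0, and the prostaglandin genes from -2.87 to 0.48. Hand2 is the stromal point at -2.75.

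The uterine identity of both libraries was checked with 8 genes, and all had tags in both. Hoxa10, Hoxa11 and Msx1 were lower in Dox- (2.87-fold, 3.20-fold and 2.36-fold) and the hormone receptor genes Pgr and Esr1 were higher (1.87-fold and 1.63-fold), as was Wnt7a (48 and 273 copies). Ovgp1, an oviduct marker, had 25 copies in Dox+ and 2 in Dox-. The 4 adipocyte markers summed to 1468 and 1120 copies, the blood markers in the table to 47 and 123, and the ovarian ones to 12 and 15. No defining marker of a listed uterine cell type was at 0 in either library.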

How the data were processed

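Uterine RNA of 1 Dox+ and 1 Dox- pool was measured by DGE. The authors removed adaptor-only, low quality and single-copy tags, aligned the rest to mm9 reference transcripts and deposited unnormalized counts of unambiguous tags per gene. The submitters' processing notes name CASAVA. The enzyme is not given in the sources used here, and the labels mention mRNA fragmentation, so tags and fragments cannot be told apart.

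The TPM values deposited by the authors are copies per 1000000 clean tags, with 0.01 at a count of 0, and all 27998 values above 0 follow from the counts within 0.0051. The authors also deposited their own comparison of both libraries (log2 ratio, ratio, P-value and FDR columns, and a summed copy number), computed from these TPM values and counts, which was not used.

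Fold differences are ratios of counts over clean tags, with exact 95% Clopper-Pearson intervals. Counts of 3 or fewer were set to 3 (0.501 TPM in Dox+, 0.513 in Dox-). Each condition has 1 library, so no test across replicates could be made. The counted tags were 74.1% and 72.2% of the clean tags. By rule, the text names every member, each fixed pathway gene with 200 combined copies and, of the other arachidonate genes, those past 1.5-fold. Members and lists were chosen with earlier results of these data known. For 1 listed gene an alias was matched. On libraries simulated with Poisson counting error alone and 200 changed genes, 6222 of 6544 intervals held the true ratio. The intervals assume this same error, so the simulation checks their computation and not variation between uteri. Alternatives were other library sizes (edgeR 4.0.16 TMM factors in R 4.3.3), filters and folds, a pseudocount and the Audic-Claverie test, which compares the counts of these libraries and not the conditions. Python 3.11.15, scipy 1.17.1 and GENCODE vM1 were used.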

Additional observations from a re-analysis of the deposited data

How the results depend on the processing

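The log2 ratio of each member stayed within its own counting interval under the 3 other library sizes and the pseudocount of 1 copy. The largest move, 0.27, was that of Ptgfr with the pseudocount. The library sizes moved the median log2 ratio of all genes by at most 0.038. The counts past the fold followed the filter and the fold. Members lower in Dox- were 7 from 20 summed copies, 8 without a filter and 2 at a fold of 2. Other pathway genes lower were 14 without a filter and 3 at a fold of 2. With the sum of assigned counts as library size they were 5 and not 7. Pathway genes higher were 6 from 20 copies, 7 without a filter, and 1 each at a fold of 2, with TMM factors and with median-of-ratios scaling. All genes higher were 2385 from 20 copies, 2869 without a filter and 302 at a fold of 2, and all genes lower were 2256, 2830 and 368. Members lower were 5 with median-of-ratios scaling, from 100 copies and at a log2 ratio beyond 0.5. In all, 44 of 60 counts stayed within 1.5 times. Among these are the members higher in Dox-, which were 0 in every setting. The Audic-Claverie test was applied on top of the fold and copy limits and removed no gene, so it is not a separate check. No paired analysis was possible because each condition has 1 library. Depth limits Ptgs2 and Ptgfr, with 4 copies each in Dox-, and variation between uteri cannot be seen.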

Other observations

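Genes that handle arachidonic acid in other ways, such as lipoxygenases and epoxide hydrolases, were counted in the same manner. Of 21 listed genes, 18 were in the table and 7 had 200 or more summed copies, with a median log2 ratio of -0.13. 3 were at least 1.5-fold higher in Dox- and 0 at least 1.5-fold lower, beside 15.2% and 14.7% of all 6547 genes with that many copies. Alox15, a lipoxygenase, had 233 copies in Dox+ and 453 in Dox- (1.99-fold higher, 1.70 to 2.34). Ephx1, the microsomal epoxide hydrolase, had 116 and 226 (1.59-fold to 2.52-fold higher), and Faah, which breaks down anandamide, 111 and 174 (1.61-fold higher, 1.26 to 2.06).

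The gene ontology column of the table assigns 47 genes to terms with prostaglandin, prostanoid, icosanoid or arachidonic acid in their names. Without the members and the fixed list 28 remained, and 13 had enough copies. Of these, 2 were higher and 4 lower past the fold, beside the same 15.2% and 14.7% of all genes, with a median log2 ratio of -0.16.

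Some secreted phospholipases with few copies, named after their values were seen, stood nearly in 1 library alone. Pla2g10 had 77 copies in Dox+ and 2 in Dox-, and Pla2g2e had none in Dox+ and 29 in Dox-. Other secreted phospholipases of the list did not, with 19 and 18 copies for Pla2g5, 5 and 4 for Pla2g2d, and 245 and 184 for Pla2g12a. Among all 14678 genes, 628 had no copy in Dox+ and 730 had none in Dox-.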
